A study of Mus musculus with 15 samples.

Results

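The 3 kinds of polypeptide that accompany the antibody heavy chain were followed through the kappa light chain constant gene Igkc, the lambda constant genes Iglc1, Iglc2 and Iglc3, and Jchain, which encodes the joining chain. They were chosen by symbol, and each was found once, so that they make up 5 of the 51912 genes in the deposited table. Their Ensembl gene identifiers are ENSMUSG00000076609 for Igkc, ENSMUSG00000105906 for Iglc1, ENSMUSG00000076937 for Iglc2, ENSMUSG00000105547 for Iglc3 and ENSMUSG00000067149 for Jchain. All 5 passed the filter on low counts, which kept 15692 genes.

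The study profiled polyA RNA of cultured mouse B cells in 15 libraries, 3 independent biological replicates in each of 5 groups. The D6 group was the unsorted culture after 6 days on 40LB feeder cells with IL-4 at 100 ng/ml. For the other 4 groups the B cells were taken off the feeders, left for 2 days in RPMI with no stimulus, and sorted at day 8 by isotype and stage, as IgE PC, IgE iGC, IgG1 PC and IgG1 iGC. PC stands for plasma cell, and iGC is the name the labels give to the sorted cells that were not plasma cells. All groups were wild type, with no treatment named, so they share the culture and its IL-4 but no allele or added compound. D6 therefore differs from the sorted groups in day, feeder contact and sorting at once, and these cannot be told apart. The age of the mice is not given in the sources used here.

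An antibody is built from paired heavy and light chains, and a B cell normally makes its light chain from either the kappa or a lambda locus. A transcript that encodes a whole light chain carries a variable segment spliced to a constant segment. Counts of a constant gene do not show whether a variable segment was joined to it. In mice kappa is the commoner light chain. Of the lambda variable segments, Iglv1 is used with Iglc1 or Iglc3, and Iglv2 and Iglv3 mainly with Iglc2. The joining chain links the tails of IgM and IgA into polymers and is made by plasma cells whatever heavy chain they use. IgE and IgG1 are secreted as monomers without it.

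Iglc2 and Iglc3 are near copies of each other and Iglc1 is less alike, which bears on how reads were shared between Iglc2 and Iglc3. The following stretches, each 120 bases from the same aligned position near the 5′ end of the coding exon, are shown for that reason. They were read from GRCm38, the build named in the submitters' processing notes, on the minus strand of chromosome 16 with GENCODE vM21 annotation. Capitals mark the positions at which Iglc2 and Iglc3 differ, and Iglc1 carries capitals at the same positions.
Iglc1, chr16:19061950-19062069: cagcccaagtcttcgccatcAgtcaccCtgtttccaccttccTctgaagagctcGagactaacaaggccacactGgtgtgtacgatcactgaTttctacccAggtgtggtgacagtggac
Iglc2, chr16:19198731-19198850: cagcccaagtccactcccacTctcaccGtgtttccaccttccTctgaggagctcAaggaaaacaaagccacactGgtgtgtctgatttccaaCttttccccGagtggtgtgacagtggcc
Iglc3, chr16:19065560-19065679: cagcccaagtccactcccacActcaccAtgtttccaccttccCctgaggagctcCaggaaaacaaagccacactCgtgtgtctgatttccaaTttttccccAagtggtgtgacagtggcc

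Iglc2 and Iglc3 differed at 7 of these 120 bases, an identity of 94.2%. Iglc1 differed from Iglc2 at 28 and from Iglc3 at 27, identities of 76.7% and 77.5%. From the start of the stretch to the end of the coding sequence, 312 bases, Iglc2 and Iglc3 differed at 11, and their longest identical run was 79 bases. The reads were 76 bases long. Of the 76-base windows of the annotated transcripts, 4 of 383 in Iglc2 and 4 of 377 in Iglc3 were also found in the other gene, and none of those of Igkc (457), Iglc1 (379) or Jchain (1318) occurred in another gene. The deposited counts of Iglc2 and Iglc3 were fractional in all 15 libraries, and those of the other 3 genes in none. The split between Iglc2 and Iglc3 is therefore uncertain, and their sum is given beside it.

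In the annotation, Igkc lies on chromosome 6 (70726435 to 70726966, plus strand) as 1 exon with 320 coding bases. Iglc1 (19061618 to 19062071), Iglc3 (19065230 to 19065681) and Iglc2 (19198396 to 19198853) each have 1 exon on the minus strand of chromosome 16. Jchain lies on chromosome 5 (88520512 to 88527891, minus strand) in 4 exons with 477 coding bases.

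Expected counts summed to between 17.7 M (IgE iGC replicate 3) and 54.1 M (IgG1 PC replicate 2) per library. The lowest count of any of the 5 genes was 151, for Jchain at D6. TMM scaling factors were at most 0.800 in IgE PC, 0.876 or more in IgG1 PC and at least 1.08 elsewhere, so that the direction of small differences between the plasma cell groups depends on the scaling. Summed TPM of 6 plasma cell markers was 1775 to 1810 in IgE PC and 1530 to 1631 in IgG1 PC, against 325 to 351 in IgE iGC and 266 to 290 in IgG1 iGC. The 6 B cell markers summed to 7151 to 7525 in iGC. T cell, myeloid and mast cell lists summed to at most 4.01 TPM in any library, with Cd3e listed at 0 in 4 groups. The 7 feeder or fibroblast markers summed to 50.5 to 87.9 TPM at D6, to 3.49 to 6.20 in IgE PC and to 29.5, 11.3 and 33.4 in the IgG1 PC libraries in replicate order. One library stood apart for these genes: IgG1 PC replicate 1 had the highest level of all 5 in its group, with Igkc at 63933 CPM against 41185 and 41114. CPM here is the count relative to the scaled library total, used between groups, and TPM is the deposited length-adjusted level, used between genes. The member comparisons of IgG1 PC with IgG1 iGC and with IgE PC are given with and without that library. So are the interaction and the lambda share between the plasma cell groups. Other results that rest on the IgG1 PC group are mostly given only with it. In bulk RNA, fewer cells of a type and less RNA per cell cannot be told apart.

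Igkc was the most abundant of the 5 genes in every library. Its TPM was 9549, 9189 and 9186 at D6, then 11501, 11206 and 11535 in IgE iGC and 10523, 9428 and 9158 in IgG1 iGC. It was 125339, 124105 and 135877 in IgE PC and 125909, 101755 and 100296 in IgG1 PC. All plasma cell libraries lay far above all others, and D6 overlapped IgG1 iGC. In the plasma cells Igkc alone was 12.8% ± 0.647 (IgE) and 10.9% ± 1.44 (IgG1) of all TPM (mean ± SD, n = 3).

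Iglc1 came second among the light chain genes. Its TPM was 1056, 991 and 922 at D6, 1937, 1891 and 1957 in IgE iGC and 1688, 1704 and 1707 in IgG1 iGC. In the plasma cells it was 6840, 7650 and 7511 (IgE) and 9505, 7327 and 6847 (IgG1). The 3 stages did not overlap, whereas the plasma cell groups of the 2 isotypes did.

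Iglc2 had 572 ± 25.0 TPM at D6, 1427 ± 48.6 in IgE iGC and 1238 ± 23.9 in IgG1 iGC (SD, n = 3). It reached 3741 ± 217 in IgE PC and 3773 ± 762 in IgG1 PC. Iglc3 had 562 ± 26.0 TPM at D6, close to Iglc2, and 1179 ± 50.5 and 1071 ± 52.5 in IgE and IgG1 iGC. It reached only 1368 ± 77.3 in IgE PC and 1522 ± 190 in IgG1 PC. Iglc3 was thus the light chain constant gene with the smallest difference between iGC and PC.

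Jchain covered the widest range. At D6 it had 4.32, 4.53 and 7.93 TPM, from 155, 151 and 250 counts. It had 481, 443 and 429 TPM in IgE iGC and 166, 172 and 171 in IgG1 iGC. In the plasma cells it had 8749, 8216 and 9324 (IgE) and 6145, 5388 and 4920 (IgG1). None of the 5 groups overlapped another, and the order D6, IgG1 iGC, IgE iGC, IgG1 PC, IgE PC held in every library. At D6 Jchain was the lowest of the 5 genes, and in both plasma cell groups it stood above Iglc2 and Iglc3.

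**Figure D1:**
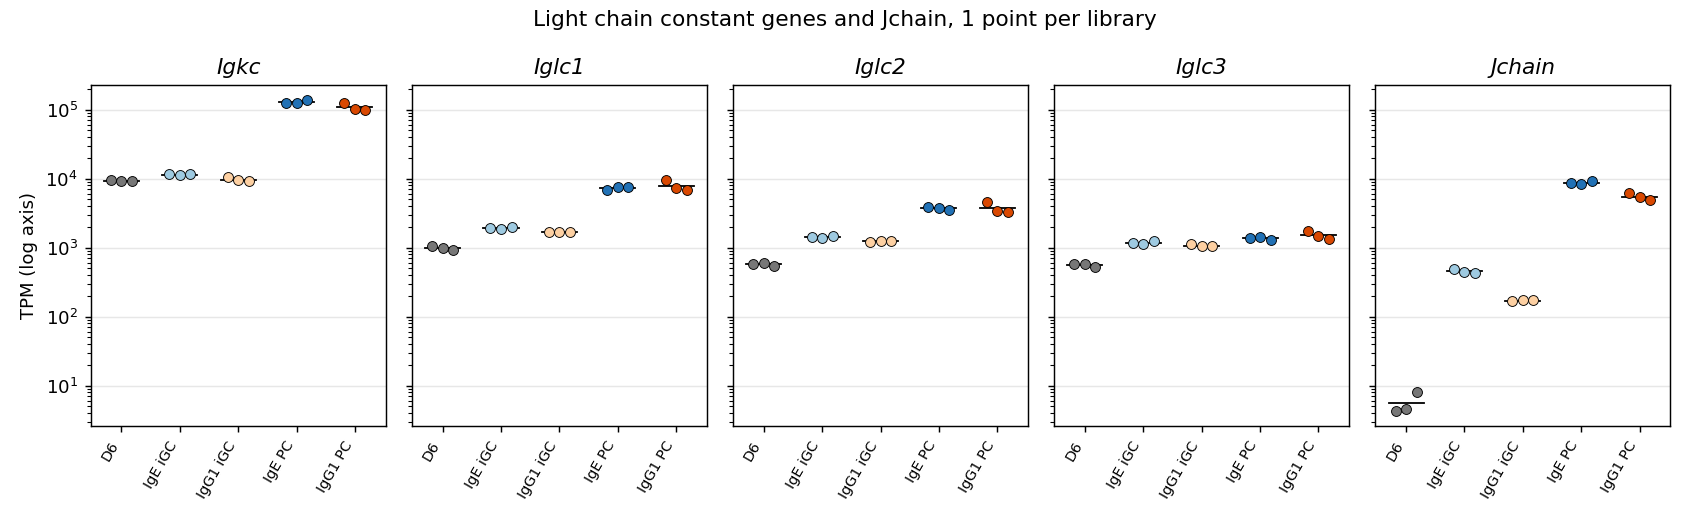
TPM of the 5 genes on a log axis, 1 point per library (3 per group) and a bar at the group mean. Jchain runs from 4.32 at D6 to 9324 in IgE PC, and Iglc3 changes least between iGC and PC.

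All 5 genes were higher in plasma cells than in iGC cells of the same isotype. In IgE, where 64.1% of all genes tested were called, the log2 fold change in CPM was 4.23 ± 0.15 for Igkc (SE; 18.8-fold), 2.67 ± 0.16 for Iglc1 (6.34-fold), 2.08 ± 0.17 for Iglc2 (4.22-fold) and 0.95 ± 0.12 for Iglc3 (1.93-fold). Jchain rose by 4.97 ± 0.20 (31.4-fold). The largest adjusted p was 6.62e-06, for Iglc3 (edgeR quasi-likelihood test, Benjamini-Hochberg over all genes, n = 3 per group). For each of the 5 genes every IgE PC library lay above every IgE iGC library. How many of all genes tested separate in this way was not counted.

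In IgG1, where 59.1% of genes were called, the same order was found. The log2 fold changes were 4.12 ± 0.15 for Igkc (17.4-fold), 2.85 ± 0.16 for Iglc1, 2.23 ± 0.17 for Iglc2, 1.13 ± 0.12 for Iglc3 and 5.58 ± 0.21 for Jchain (47.8-fold), with Iglc3 again having the largest adjusted p (edgeR). Without IgG1 PC replicate 1 they were 3.88, 2.56, 1.89, 0.90 and 5.36, all 5 still called. Iglc2 and Iglc3 counted as 1 gene rose by 1.72 ± 0.15 in IgE and 1.87 ± 0.16 in IgG1. Ranked by log2 fold change from the top among the 15692 genes, Jchain was 71st and 58th, Igkc 238th and 260th, and Iglc3 2428th and 2309th, in IgE and IgG1.

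**Figure D2:**
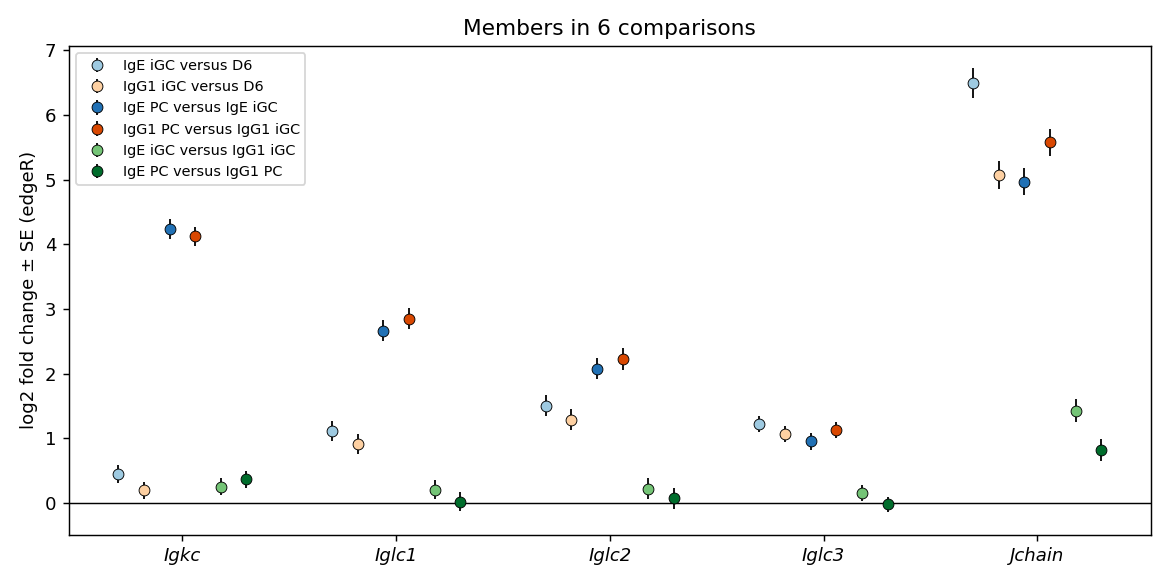
Log2 fold change of CPM (edgeR, ± SE) of the 5 genes in 6 comparisons. The plasma cell points fall from 4.23 for Igkc to 0.95 for Iglc3 in IgE, and Jchain has the largest values in both isotype comparisons (1.42 and 0.82).

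Between the isotypes, Jchain was the member that differed at both stages. In iGC cells Jchain was 402.9 ± 29.8 CPM in IgE and 150.1 ± 0.917 in IgG1 (SD, n = 3), a log2 difference of 1.42 ± 0.18 (SE; 2.68-fold) with an adjusted p of 0.000282 (edgeR). It was the only one of the 5 called in that comparison, where 3.87% of all genes were called. The other 4 were 0.16 to 0.25 higher in IgE iGC on the log2 scale, with adjusted p-values from 0.422 to 0.642 (edgeR). With only the 6 iGC libraries in the fit, which called 1503 genes in all against 607, 3 of those were called as well, Igkc (0.25, adjusted p = 0.0185), Iglc1 (0.19, 0.00483) and Iglc2 (0.21, 0.00233) (edgeR).

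Jchain in iGC cells was 3.19% of the IgE PC level and 2.09% of the IgG1 PC level in CPM. The same ratio was 0.666% and 0.830% for Sdc1, a surface proteoglycan that marks plasma cells, and 2.62% and 2.01% for Prdm1, the transcription factor BLIMP-1. The rest of the listed plasma cell markers had 9.27% and 7.09% (Xbp1), 4.44% and 6.91% (Irf4), 5.66% and 1.56% (Tnfrsf17) and 53.7% and 80.1% (Slamf7). Igkc stood at 5.32% and 5.74% and Iglc3 at 51.8% and 45.6%. The mean levels of the 6 plasma cell markers were also higher in IgE iGC than in IgG1 iGC, although most were not called. Their sums (325 to 351 against 266 to 290 TPM) did not overlap. Of the 6, 2 were called higher and none lower, where 3.87% of all genes were called in either direction (median log2 difference 0.49, against 0.01 over all genes). Sdc1 was 2.17 CPM in IgE iGC and 1.41 in IgG1 iGC, and Prdm1 5.90 and 3.99. In the same order Xbp1 was 177 and 134 CPM, Irf4 99.8 and 92.8, Slamf7 260 and 230, and Tnfrsf17, at a very low level, 0.47 and 0.06. Their part in the Jchain difference was not tested.

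In plasma cells Jchain was 12642 ± 1178 CPM in IgE and 7172 ± 1742 in IgG1, a log2 difference of 0.82 ± 0.17 (1.76-fold; adjusted p = 0.00095, edgeR), and 1.03 without IgG1 PC replicate 1. Igkc was 62658 ± 5232 CPM in IgE PC and 48744 ± 13154 in IgG1 PC, a difference of 0.36 ± 0.13 (adjusted p = 0.0314, edgeR). These 2 of the 5 members were called, where 58.1% of all genes were, so their count was no higher than the background. Iglc1 (0.02 ± 0.15), Iglc2 (0.07 ± 0.16) and Iglc3 (-0.02 ± 0.12) had adjusted p-values from 0.736 to 0.932 (edgeR). Summed B cell markers were 1931 to 2138 TPM in IgE PC and 2746 to 3234 in IgG1 PC, with 3 of 6 called lower in IgE and 0 higher. The 4 germinal centre markers summed to 38.1 to 39.9 and 53.0 to 84.3, but 1 was called higher in IgE and 2 lower (median log2 difference -0.18, against -0.05 over all genes). Of the 6 plasma cell markers 4 were called higher in IgE and 0 lower (median 0.75). The part of any of these lists in the differences of Jchain, Igkc and the lambda share between the plasma cell groups was not tested.

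The plasma cell comparison turned on single libraries for the light chains. Without IgG1 PC replicate 1 all 5 members were called, at 0.61 for Igkc, 0.31 for Iglc1, 0.40 for Iglc2 and 0.20 for Iglc3. Without IgE PC replicate 3, IgG1 PC replicate 2 or IgG1 PC replicate 3, the call of Igkc was lost, with values of 0.31, 0.26 and 0.25. With only the 6 plasma cell libraries in the fit its adjusted p was 0.138, and with total-count scaling the difference was 0.12 (adjusted p = 0.327, edgeR). Jchain kept its call in each of these fits.

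The interaction, which is the plasma cell to iGC change in IgE minus that in IgG1, called none of the 5 members, where 42.9% of all genes were called. At an unadjusted p under 0.05, 1 member passed, Jchain, with -0.61 ± 0.24 (unadjusted p = 0.0256, adjusted p = 0.0578, edgeR). The Jchain interaction was called by edgeR in 4 alternatives, with total-count scaling (-0.83, adjusted p = 0.00594), with D6 left out of the fit (-0.62, adjusted p = 0.0199), and without IgG1 PC replicate 2 (-0.68, adjusted p = 0.0468) or replicate 3 (-0.73, adjusted p = 0.0300). DESeq2 also called none, with -0.57 for Jchain (adjusted p = 0.15). The values of the other 4 ran from -0.19 to 0.11. Without IgG1 PC replicate 1 the Jchain value was -0.39, and Igkc (0.35) and Iglc2 (0.18) were called.

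Against the day 6 culture, the lambda genes and Jchain were higher in both iGC groups. In IgE iGC, where 69.1% of genes were called, all 5 members were called, with log2 fold changes of 0.45 ± 0.13 for Igkc (adjusted p = 0.00838, edgeR), 1.11 ± 0.15 for Iglc1, 1.51 ± 0.16 for Iglc2, 1.22 ± 0.13 for Iglc3 and 6.50 ± 0.23 for Jchain (90.4-fold). In IgG1 iGC, where 68.4% were called, 4 members were called, with 0.91 ± 0.15 for Iglc1, 1.28 ± 0.16 for Iglc2, 1.06 ± 0.13 for Iglc3 and 5.07 ± 0.22 for Jchain (33.7-fold). Igkc was 0.19 ± 0.13 higher there (adjusted p = 0.218, edgeR), and 0.25 with an adjusted p of 0.00235 when only those 6 libraries were fitted.

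In the plasma cells all 5 members were called against D6, where 76.4% (IgE) and 71.9% (IgG1) of genes were. Jchain was 2835-fold and 1609-fold higher, Igkc 25.6-fold and 19.9-fold, and Iglc3 4.51-fold and 4.59-fold. These comparisons share the D6 libraries. The Jchain folds rest on 151 to 250 counts per D6 library, whose levels differed from each other by a coefficient of variation of 36.0%. D6 had higher summed feeder markers than the sorted groups, and its plasma cell markers summed to 666 to 716 TPM, above those of iGC. The 6 plasma cell markers did not all go that way. Against D6, 4 were called lower and 2 higher in IgE iGC (69.1% of all genes called), and 4 lower and 1 higher in IgG1 iGC (68.4% called). The part of the feeder or plasma cell markers in these differences from D6 was not tested.

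The share of lambda among light chain constant counts separated the stages. Lambda, the sum of Iglc1, Iglc2 and Iglc3, was 16.8%, 16.9% and 15.9% at D6, 25.9%, 25.9% and 26.2% in IgE iGC and 25.3%, 27.2% and 27.9% in IgG1 iGC. In plasma cells it was 7.81%, 8.28% and 7.30% (IgE) and 10.01%, 9.48% and 9.07% (IgG1). Every plasma cell library lay below D6 and every iGC library above it, and IgE PC lay below IgG1 PC. In counts, kappa stood 5.05 ± 0.213 to 1 over lambda at D6, 2.85 ± 0.0269 and 2.74 ± 0.192 in IgE and IgG1 iGC, and 11.9 ± 0.812 and 9.52 ± 0.515 in IgE and IgG1 PC (SD, n = 3).

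Over both isotypes the lambda share differed by -17.7 percentage points between PC and iGC (PC minus iGC, exact permutation test within isotype, 400 arrangements, two-sided p = 0.005, the smallest it can give, adjusted p = 0.01 over 2 tests). Within 1 isotype the differences were -18.2 points in IgE and -17.3 in IgG1, each with an exact p of 0.1, the smallest that 3 against 3 libraries allow, and an adjusted p of 0.133 over 4 tests. Over both stages the share was 1.26 points lower in IgE than in IgG1 (exact p = 0.025, adjusted p = 0.025). Within stages this was -1.72 in plasma cells, where the groups did not overlap (exact p = 0.1, adjusted p = 0.133), and -0.81 in iGC cells, where they did (exact p = 0.4). Without IgG1 PC replicate 1 the plasma cell difference was -1.48. The isotype difference over both stages was -0.99 points with an exact p of 0.055 without IgG1 iGC replicate 3.

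**Figure D3:**
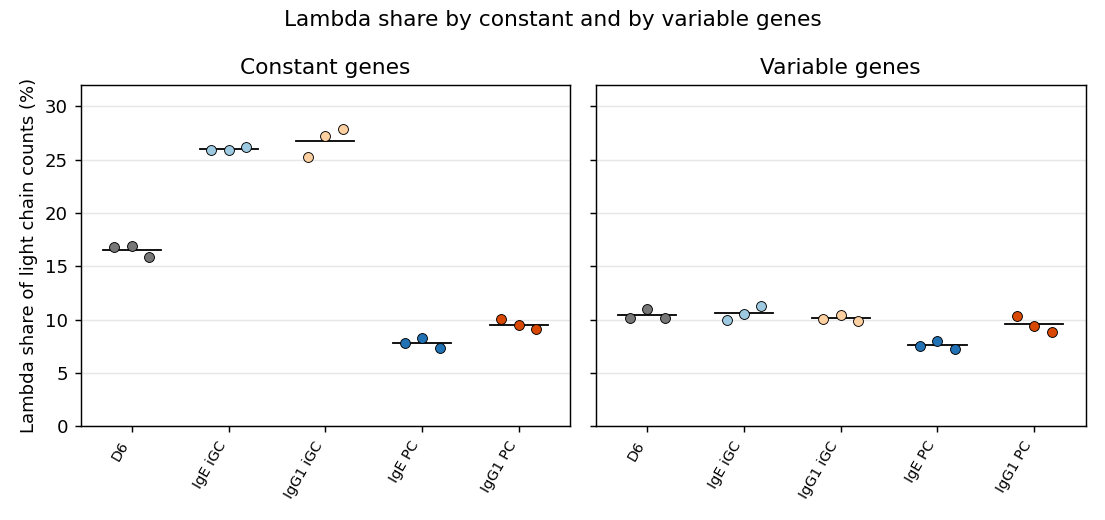
Lambda share of light chain counts (%) per library, from constant genes (left) and from variable genes (right), with bars at the group means. By constant genes iGC stands at 25.3% to 27.9% and PC at 7.30% to 10.01%, whereas by variable genes all 15 libraries lie between 7.27% and 11.2%.

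Counted by variable genes, the same balance looked different. The lambda share of variable gene counts, from Iglv1, Iglv2 and Iglv3 against 133 Igkv genes with counts, was 10.4% ± 0.467 at D6, 10.6% ± 0.645 in IgE iGC and 10.1% ± 0.268 in IgG1 iGC (SD, n = 3). It was 7.57% ± 0.347 in IgE PC and 9.54% ± 0.740 in IgG1 PC. The differences between PC and iGC were then -3.01 points in IgE (exact p = 0.1) and -0.56 in IgG1 (exact p = 0.3), and -1.78 over both isotypes (exact p = 0.015). The isotype difference was -1.97 points in plasma cells (exact p = 0.1) and 0.47 in iGC cells, and -0.75 over both stages (exact p = 0.165).

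The 2 ways of counting differ by the number of variable counts per constant count, examined after the values were seen and given without a test. For kappa it was near 1 level in every library, from 0.403 to 0.526. For lambda 1, Iglv1 per Iglc1 was 0.484 ± 0.0275 at D6, 0.298 ± 0.0126 in IgE iGC, 0.263 ± 0.0148 in IgG1 iGC, 0.647 ± 0.0130 in IgE PC and 0.632 ± 0.00932 in IgG1 PC (SD, n = 3). For the pair of Iglv2 and Iglv3 per Iglc2 and Iglc3, the ratio was 0.132 to 0.145 at D6, 0.0567 to 0.0755 in iGC cells and 0.281 to 0.310 in plasma cells. In both lambda ratios, iGC lay lowest and PC highest with no overlap between stages. Because Iglv1 also joins Iglc3, neither ratio sets variable genes against only the constant genes they join. Taken over all lambda genes, the mean ratio was 0.293 at D6, 0.163 in IgE iGC, 0.140 in IgG1 iGC, 0.496 in IgE PC and 0.486 in IgG1 PC.

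**Figure D4:**
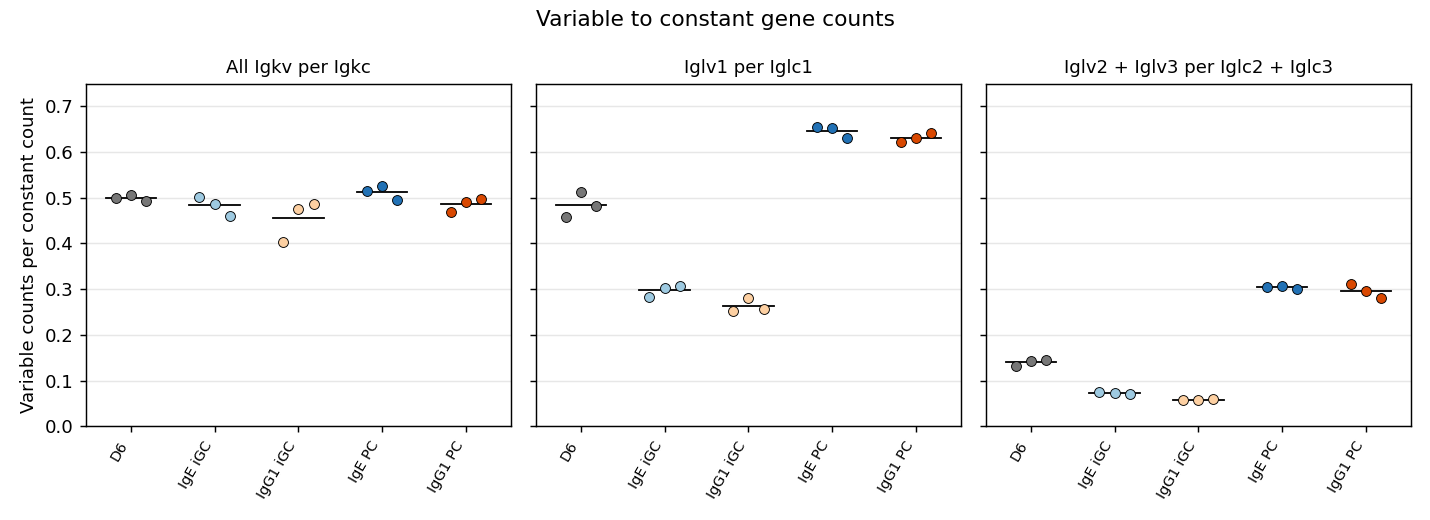
Variable gene counts per constant gene count, 1 point per library with bars at the group means, for kappa, lambda 1 and lambda 2 and 3. Kappa ratios lie between 0.403 and 0.526 in all groups, whereas Iglv1 per Iglc1 is 0.253 to 0.307 in iGC and 0.623 to 0.655 in PC.

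The lambda variable genes had larger log2 changes between iGC and PC than the constant genes they join, a difference that was not tested. In IgE, Iglv1 rose by 3.78 ± 0.16, Iglv2 by 4.08 ± 0.22 and Iglv3 by 3.30 ± 0.12 on the log2 scale, and in IgG1 by 4.11 ± 0.16, 4.92 ± 0.23 and 2.79 ± 0.12. Between D6 and iGC, Iglv1 (0.41, adjusted p = 0.0199) and Iglv3 (0.60, adjusted p = 0.000425) were called in IgE and Iglv2 (0.34, adjusted p = 0.158) was not (edgeR). In IgG1 none of the 3 was called, with values of 0.03, -0.30 and 0.18 and adjusted p-values from 0.188 to 0.859 (edgeR). Between the plasma cell groups Iglv3 was 0.92 ± 0.11 higher in IgE (adjusted p = 4.66e-06, edgeR), while Iglv1 (0.05) and Iglv2 (-0.20) were not called. Of the 12 listed neighbours of the light chain genes 5 were tested, and 4 were called higher in PC in each isotype, Iglv1, Iglv2, Iglv3 and the kappa joining segment Igkj2. Over all genes tested, 64.1% were called in IgE and 59.1% in IgG1, in either direction.

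The makeup of lambda also differed between stages. Iglc1 gave 44.5% ± 0.836 of lambda constant counts at D6, 39.9% ± 0.222 in IgE iGC, 39.8% ± 0.416 in IgG1 iGC, 56.1% ± 2.46 in IgE PC and 56.7% ± 0.370 in IgG1 PC. Iglc3 gave 25.1% ± 0.280, 24.3% ± 0.504, 25.0% ± 1.11, 10.4% ± 0.452 and 10.95% ± 0.685 in the same order (SD, n = 3). The Iglc3 share was therefore lower in plasma cells than in every other library. It rests on the division of reads between Iglc2 and Iglc3.

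Jchain also moved against the light chains as a whole. In TPM it was 0.0367% to 0.0709% of the 4 light chain constant genes at D6, 2.65% to 3.00% in IgE iGC, 1.14% to 1.303% in IgG1 iGC, 6.00% to 6.36% in IgE PC and 4.33% to 4.73% in IgG1 PC. No groups overlapped, and the order was that of the Jchain level itself. The light chain constant genes were 1.39 ± 0.00838 times the 8 heavy chain constant genes in TPM at D6, 1.93 ± 0.0338 in IgE iGC, 2.42 ± 0.0946 in IgG1 iGC, 1.52 ± 0.0107 in IgE PC and 1.41 ± 0.0612 in IgG1 PC. The order depends on the unit. In expected counts the ratio was 0.386 ± 0.000560 at D6, 0.623 ± 0.0122 in IgE iGC, 0.547 ± 0.0241 in IgG1 iGC, 0.532 ± 0.00416 in IgE PC and 0.610 ± 0.0262 in IgG1 PC, so that IgG1 iGC lay below IgE iGC and IgG1 PC, where in TPM it lay above both.

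Heavy chain constant genes were read beside the light chains. Of 8, 5 rose and 1 fell between iGC and PC in IgE (median log2 fold change 0.48, against -0.08 over all genes, of which 64.1% were called). In IgG1 7 rose and 1 fell (1.82, against 0.01, with 59.1% called). Ighe, the IgE heavy chain, rose by 4.37 in IgE, near the 4.23 of Igkc, and Ighg1, the IgG1 heavy chain, rose by 3.79 in IgG1, near the 4.12 of Igkc there. Igha, the IgA heavy chain, which binds the joining chain in polymeric IgA, rose by 2.52 in both isotypes but only to 33.6 ± 0.859 TPM in IgE PC. Ighm, the IgM heavy chain, rose by 0.29 in IgE and by 1.29 in IgG1 (all adjusted p at most 0.00786, edgeR). With total-count scaling Ighm was instead called lower in IgE PC than in IgE iGC (-0.18, adjusted p = 0.0379, edgeR).

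Genes that fold, link and export antibody chains rose with them. Of 28 listed genes 25 were tested, and 24 rose and 1 fell in IgE (median 3.03, against -0.08 over all genes, of which 64.1% were called). In IgG1 23 rose and 1 fell (median 2.57, against 0.01, with 59.1% called). The largest changes were of Fkbp11 (5.41 in IgE and 4.92 in IgG1), a prolyl isomerase of the secretory pathway, Creld2 (4.57 and 3.46), an endoplasmic reticulum stress gene, Dnajb9 (4.53 in IgE), a partner of the chaperone BiP, Hsp90b1 (4.40 and 3.56), the chaperone GRP94, and Txndc5 (3.18 in IgG1), a disulfide isomerase. A gene given for 1 isotype was among the 4 largest changes only there, which does not limit its change to that isotype. Between the plasma cell groups 24 of the 25 were higher in IgE and 1 was lower (median 0.94, against -0.05 over all genes, 58.1% called), whereas the light chain genes apart from Igkc were not called there. Between D6 and iGC the list went the other way from the lambda genes and Jchain, with 2 of 25 higher and 19 lower in IgE (median -0.91, 69.1% of all genes called) and 1 higher and 20 lower in IgG1 (median -0.96, 68.4% called). The median over all genes was -0.04 in both.

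Of 26 genes listed as regulators, not all of them of light chain or Jchain transcription, 8 rose and 16 fell in IgE (median -0.41, against -0.08 over all genes, 64.1% called). In IgG1 8 rose and 15 fell (median -0.30, against 0.01, 59.1% called). Prdm1 rose by 5.23 in IgE and 5.63 in IgG1. Irf4, a factor that binds light chain enhancers, rose by 4.49 and 3.86, and Xbp1, which drives the secretory programme, by 3.43 and 3.82. Ell2, an elongation factor acting on heavy chain transcripts, rose by 2.49 in IgG1, and Spib, a partner of Irf4, fell by 3.67 on the log2 scale in IgE. Both are given for the isotype in which they were among the 4 largest changes of the list, which does not limit their change to it. Of 4 surrogate light chain genes only Vpreb3 was tested, and it rose by 0.49 and 0.42.

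The genes whose log2 CPM followed each member most closely over the 15 libraries were named by Pearson r among 8245 genes, as a description. The points share 5 groups, so that any gene with the same order of group means scores high. For Igkc they were Edem2 (r = 0.997), Selplg, Slpi, Txndc11 and Prdm1 (0.994). For Jchain they were Tinf2 (0.997), Trim25, Chrnb1, Pou2af1 and Zbp1 (0.992). For the sum of the lambda genes they were Spata2 (0.997), Pld3, Gusb, Entpd1 and Pim1 (0.994).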

How the data were processed

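RNA-seq was measured in 15 libraries, grouped by the labels' titles. Per the file headers, the authors deposited RSEM expected counts and TPM per Ensembl gene, the latter scaled for length and total. The submitters' processing notes name cutadapt 1.9.1, STAR 2.5.2a, RSEM 1.3.0, DESeq2 1.12.3 and GRCm38; the annotation release is not given in the sources used here. Symbols matched 51633 of 51912 identifiers, and 113 of 115 list genes. No per-sample column was left unmapped.

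Expected counts were rounded, filtered (filterByExpr, minimum count 10, total 15) and scaled by TMM. edgeR 4.0.16 (R 4.3.3) fitted 1 mean per group to all libraries with glmQLFit (robust, 10 residual degrees of freedom) and glmQLFTest, with Benjamini-Hochberg adjustment over 15692 genes and calls at 0.05. The SE is the log2 fold change divided by the square root of F. The code was tested on simulated data. Lambda shares were compared by exact permutation tests over all arrangements of the libraries (Python 3.11.15, numpy 2.4.6). Alternatives were other scalings, no filter, a replicate block, only the groups compared, DESeq2 1.42.0, other definitions of the share and leaving out each library; summing Iglc2 and Iglc3 was chosen after seeing the data.

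The members and lists were chosen with earlier results of these data known. From each list, up to 4 genes with the largest change among those called between PC and iGC with a mean of 10 CPM were named, and for likeness the 5 highest Pearson r of log2 CPM (prior count 2), immunoglobulin segments and predicted genes left out. Reads carry no molecular identifiers.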

Additional observations from a re-analysis of the deposited data

Results flagged for a closer look

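None of the 5 members had an interaction of isotype and stage past the threshold (edgeR, Benjamini-Hochberg adjusted), where 42.9% of all genes tested did. Of the 18 genes named from the lists 11 did, so their change from iGC to PC differed between IgE and IgG1. The 18 were picked for large called changes between PC and iGC in these same libraries, so their share cannot be set against that of all genes. The values are the log2 change in IgE minus that in IgG1. Among the lambda variable genes, Iglv2 had -0.84 ± 0.28 (SE; adjusted p = 0.0268) and Iglv3 had 0.51 ± 0.16 (adjusted p = 0.0203). Among the heavy chain genes, Ighe had 2.02, Ighg1 -2.80 and Ighm -0.999, with adjusted p-values of at most 1.54e-05. Ighe and Ighg1 are the genes of the isotypes by which the cells were sorted, so their values are not independent of the sort. Of the folding and export genes, Dnajb9 had 1.82, Creld2 1.11 and Hsp90b1 0.83, with adjusted p-values of at most 0.00103. Of the regulators, Irf4 had 0.64, Ell2 0.57 and Spib -2.08, with adjusted p-values of at most 0.000177. Spib therefore fell further in IgE, and Iglv2 and Iglv3 went opposite ways although both join mainly Iglc2. Without IgG1 PC replicate 1 the values were -0.45 for Iglv2 and 0.69 for Iglv3, both still called.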

How the results depend on the processing

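Of 1761 alternative values, 1671 stayed the same, 17 lost the call, 27 gained one, 35 reversed and 11 counts of called members moved. Staying the same means keeping direction and side of the threshold. For 112 of the 1671, which are counts of called members, it means a count equal or close to the main one. Unless a cause is given, it was not tested. Total-count scaling, which moves the median of all genes from -0.05 to -0.30 between the plasma cell groups and from -0.06 to -0.30 in the interaction, gave for IgE PC against IgG1 PC Igkc 0.12, Iglc1 -0.22, Iglc2 -0.16, Iglc3 -0.26 (called) and Iglv1 -0.18; for the interaction Igkc -0.12, Iglc3 -0.41 and Jchain -0.83 (2 members called), Vpreb3 -0.16 and Igha -0.24; and Ighm -0.18 (called lower) in IgE PC against iGC and Iglv1 -0.0171 in IgG1 iGC against D6. Iglc3 between the plasma cell groups turned to 0.0202 with DESeq2 size factors, 0.0177 with library sizes free of immunoglobulin genes, 0.0199 with DESeq2 and 0.0460 summed with Iglc2. Fitting only the groups compared gave Igkc 0.36 (1 member called) in plasma cells; Igkc 0.25, Iglc1 0.19 and Iglc2 0.21 (4 called) in iGC, where 1503 genes were called against 607 (937 with DESeq2, 323 to 403 leaving out a library); Jchain -0.62 (1 called) and Igha -0.0117 in the interaction; and Igkc 0.25 in IgG1 iGC against D6. With no filter the Igha interaction was -0.00496. Leaving out each library gave, for IgE PC against IgG1 PC, 0.25 to 0.61 for Igkc, -0.12 to 0.31 for Iglc1, -0.0792 to 0.40 for Iglc2, -0.15 to 0.20 for Iglc3, -0.0766 to 0.33 for Iglv1, -0.39 to 0.19 for Iglv2 and 1 to 5 members called. For the interaction it gave 0.0015 to 0.35 for Igkc, -0.32 to 0.11 for Iglc1, -0.30 to 0.18 for Iglc2, -0.31 to 0.0474 for Iglc3, -0.73 to -0.39 for Jchain, -0.0099 to 0.21 for Vpreb3, -0.14 to 0.26 for Igha and 0 to 2 members called. Iglv1 in IgG1 iGC against D6 ran from -0.0188 to 0.0705. The lambda share by variable genes was 0.47 points higher in IgE iGC and 0.75 lower over both stages (-0.75, exact p = 0.165). By constant genes, leaving out a library gave -1.64 to -0.99 points over both stages. Same-numbered libraries did not deviate together (mean r -0.0146, highest 0.0908 over 30 pairs), so the numbers are not taken as pairs; the replicate block left -1.26 points over both stages with a sign-flip p of 0.0625 (exact) and changed no call of a member.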

Other observations

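Iglc4, a lambda constant gene without a working product, was tested at low levels, with 6 to 38 counts per library and mean TPM between 1.24 and 4.71 in the 5 groups. It was not called between PC and iGC in either isotype (-0.64 ± 0.41 in IgE, adjusted p = 0.188, and -0.12 ± 0.36 in IgG1, adjusted p = 0.785, edgeR). Heavy chain transcripts of the other isotype were present in every sorted group. Ighe had 1443 ± 327 TPM in IgG1 PC and 430 ± 41.8 in IgG1 iGC, and Ighg1 had 1325 ± 72.4 TPM in IgE PC and 705 ± 77.1 in IgE iGC (SD, n = 3), against 91023 ± 3689 for Ighe in IgE PC.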
